A study of Mus musculus with 6 samples.

Results

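Myosin heavy chains are the motor proteins of the thick filament, and the striated muscle members of the family set how fast a fibre contracts. The 9 genes described here are Myh1, Myh2, Myh3, Myh4, Myh6, Myh7, Myh7b, Myh8 and Myh13, out of 47729 genes in the files. They were found by their symbol, and all 9 had a row in every file. They were chosen by the diet difference of the same libraries, since members of the family were lower in brown adipose tissue (BAT) of mice on the high-fat diet. The diet differences below are therefore descriptions, and no p-value is given for a member.

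BAT was taken from male wild type C57BL/6J mice that were single-housed and fed from 6 weeks of age for 4 weeks. The 3 HFD-fed mice received a diet with 45% of calories from fat and the 3 LFD-fed mice a standard rodent diet. The right interscapular pad was used, and within each diet RNA-Seq was run on the fattest mouse, the leanest and a mouse in between. The text of the study does not say which replicate number stands for which fat mass. The mice of each diet are called HFD 1 to HFD 3 and LFD 1 to LFD 3 after the replicate numbers of the labels.

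In adult skeletal muscle the heavy chain names the fibre type. Myh7 is the slow chain of type I fibres and of the heart ventricle, while Myh2, Myh1 and Myh4 are the fast chains of type IIa, IIx and IIb fibres. Myh3 (embryonic) and Myh8 (perinatal) are used during muscle development and regeneration. Myh6 is the atrial chain, Myh13 the chain of extraocular muscle, and Myh7b an ancient member of slow and cardiac muscle. Mature brown adipocytes are not known for thick filaments of these chains, although they descend from precursors that are shared with skeletal muscle.

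The fast and developmental chains lie together on chromosome 11. On GRCm38 the 6 genes Myh3, Myh2, Myh1, Myh4, Myh8 and Myh13 stand in this order on the plus strand, between chr11:67078300-67371586. Myh6 and Myh7 are neighbours on the minus strand of chromosome 14, at chr14:54941921-54966927 and chr14:54970684-54994626. Myh7b is alone on chromosome 2 at chr2:155611212-155634307.

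The coding sequences are so alike that a short read cannot always be given to a single gene. Myh6 and Myh7 were identical at 91.7% of aligned coding bases, Myh1 and Myh2 at 90.9%, and Myh1 and Myh4 at 90.1%. Myh7b was the most distant member, with 67.9% (Myh13) to 71.7% (Myh7). The reads were 75 bases long. Of all stretches of 75 bases in the transcript, 16.6% in Myh1, 16.3% in Myh2 and 9.68% in Myh4 were also found letter for letter in another member. The exon stretch in which Myh1, Myh2 and Myh4 differed most is shown because it tells the fast chains apart, with Myh8 for comparison. It is in exon 29 of the Myh1, Myh2 and Myh8 transcripts and in exon 28 of the Myh4 transcript, on the plus strand of GRCm38. Capitals mark the 30 positions at which the 4 genes are not all the same.
Myh1, chr11:67217464-67217538: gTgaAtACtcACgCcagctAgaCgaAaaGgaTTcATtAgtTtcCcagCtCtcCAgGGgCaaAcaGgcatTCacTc
Myh2, chr11:67191348-67191422: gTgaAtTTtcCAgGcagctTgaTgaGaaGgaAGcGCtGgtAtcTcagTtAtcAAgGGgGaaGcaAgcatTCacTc
Myh4, chr11:67254458-67254532: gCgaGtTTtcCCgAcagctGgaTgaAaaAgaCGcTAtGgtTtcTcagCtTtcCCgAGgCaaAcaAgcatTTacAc
Myh8, chr11:67299713-67299787: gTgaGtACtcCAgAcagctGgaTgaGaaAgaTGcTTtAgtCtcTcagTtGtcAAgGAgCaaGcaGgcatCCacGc

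Myh1 and Myh4 differed at 21 of these 75 bases, and Myh2 and Myh8, the closest pair here, at 17. A stretch that all 4 genes share shows the other extreme, since a read from it fits each of them equally. It is in exon 24 of Myh1, Myh2 and Myh8 and exon 23 of Myh4, and it holds no capitals because it holds no difference.
Myh1, chr11:67213605-67213679: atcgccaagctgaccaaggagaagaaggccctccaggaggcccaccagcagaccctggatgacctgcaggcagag

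RSEM, the program with which the authors counted reads, divides a read that fits several genes between them. The files also hold the spread of each count over repeated divisions. In LFD 2 this SD was 46.8 reads for 21062 counts of Myh1 and 15.8 reads for 2046 counts of Myh8. In HFD 1 it was 3.40 reads for 105 counts of Myh1 and 1.70 for 12 counts of Myh8. Small counts were not always uncertain in this way, since the SD was 0.17 reads for 27 counts of Myh7 in HFD 1 and 0 for Myh7b in every mouse.

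The region before the start of Myh1, Myh2 and Myh4 is shown because these 3 genes moved together, with every HFD-fed mouse below every LFD-fed mouse. The RefSeq promoters (GRCm38.p6, plus strand) hold a run of 20 bases in common, marked in capitals with 40 bases on either side. Counted from the RefSeq start, the run begins at base -165 in Myh1, -130 in Myh2 and -163 in Myh4. It was found in 3 of 32851 mouse promoters of 300 bases, which are those of these 3 genes.
Myh1, chr11:67199897-67199996: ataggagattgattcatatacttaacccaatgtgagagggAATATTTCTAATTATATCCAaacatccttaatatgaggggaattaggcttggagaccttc
Myh2, chr11:67170857-67170956: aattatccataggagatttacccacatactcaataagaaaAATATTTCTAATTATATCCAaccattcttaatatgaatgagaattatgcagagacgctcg
Myh4, chr11:67237609-67237708: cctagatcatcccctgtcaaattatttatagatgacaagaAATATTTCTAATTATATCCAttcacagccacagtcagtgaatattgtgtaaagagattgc

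The shared run is a description of sequence and was not tested for function. The letters of known muscle motifs were also searched on both strands of all promoters. The E-box (CANNTG), which the MyoD family binds, was in the promoters of 7 of the 9 genes and in 72.3% of all promoters. The MEF2 site was in the promoters of Myh1, Myh4 and Myh8 and in 3.19% of all, and it overlapped a TATAAA match in each of these 3. The CArG box of serum response factor was in those of Myh4 and Myh13 and in 1.63% of all. The M-CAT motif (CATTCC), which TEAD factors bind, was in 4 of 9 and in 14.7% of all promoters. The letters TATAAA were in 6 of 9 and in 13.6% of all.

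Levels are given in TPM, which the authors' files hold and which divides counts by gene length, so that genes can be compared. Counts are expected counts rounded to whole numbers. The libraries held 17156991 to 21603487 counts each. In this bulk tissue, which cells held the heavy chain RNA is not known. Less muscle in a sample, whatever its origin, and less heavy chain RNA in each cell cannot be told apart. No microscopy of the pads was analysed here.

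The fast type IIb chain Myh4 was the most abundant member on average. Its level was 267, 973 and 63.2 TPM in LFD 1, 2 and 3. In the HFD-fed mice it was 4.12, 10.6 and 0.06 TPM. All HFD-fed mice lay below all LFD-fed mice, and the lowest, HFD 3, held 6 counts against 80264 in LFD 2, the highest.

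The type IIx chain Myh1 had 93.5, 269 and 77.7 TPM in LFD 1, 2 and 3 and 0.81, 5.81 and 0.23 TPM in HFD 1, 2 and 3. Its diets did not overlap either. Unlike in the other LFD-fed mice, Myh1 stood above Myh4 in LFD 3. The same order held in HFD 3, where the 2 values rest on 8 and 6 counts.

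The type IIa chain Myh2 had 30.6, 97.2 and 32.3 TPM in the LFD-fed mice. It had 0.23, 4.58 and 0.04 TPM in the HFD-fed mice. Again the diets were apart, and the nearest mice across the diets were HFD 2 and LFD 1.

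The slow chain Myh7 differed more among the LFD-fed mice than the fast chains did. It had 0.84 TPM in LFD 1 from 30 counts, 80.3 in LFD 2 from 6546 and 22.3 in LFD 3 from 1612. HFD 1 had 0.20 TPM from 27 counts, and HFD 2 and HFD 3 had 0 counts. The diets did not overlap in TPM, but LFD 1 and HFD 1 had nearly the same number of counts. The effective length, by which RSEM divides, was 2024 bases for Myh7 in LFD 1 and 6066 in HFD 1, so that their difference in TPM rests mostly on the length that RSEM assigned.

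**Figure D1:**
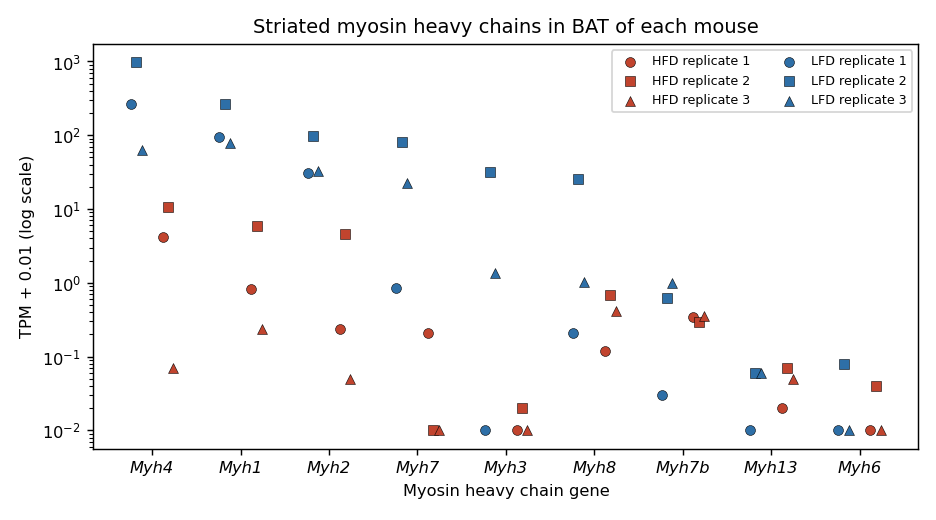
Level of each of the 9 heavy chains in each mouse, in TPM with 0.01 added so that 0 can be drawn on the log axis. Blue points are LFD-fed and red points HFD-fed mice, with the replicate numbers as shapes. For Myh4, Myh1 and Myh2 every blue point lies above every red point, while for Myh8, Myh7b and Myh13 the colours overlap and Myh3 stands out in LFD 2.

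The developmental chains were found mainly in a single mouse. Embryonic Myh3 had 31.6 TPM in LFD 2 from 2609 counts and 1.34 TPM in LFD 3 from 95 counts. LFD 1 had 0 counts, and the HFD-fed mice had 0, 1 and 0. Most of the Myh3 signal of the series was thus in LFD 2, and LFD 1, which had the second highest Myh4, had none. A count of 0 leaves room for up to 3 counts, so Myh3 was not detectable in LFD 1 and the HFD-fed mice at this depth.

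Perinatal Myh8 had 25.4 TPM in LFD 2 from 2046 counts, against 0.20 in LFD 1 and 1.02 in LFD 3. The HFD-fed mice had 0.11, 0.67 and 0.40 TPM. HFD 2 and HFD 3 lay above LFD 1, so the diets overlapped. In HFD 3, the 35 counts of Myh8 outnumbered the 18 counts of the 4 adult chains together. Myh3 and Myh8 together made up 3.86% of the TPM of all 9 genes in LFD 2, 1.19% in LFD 3 and 0.0510% in LFD 1. In HFD 1 and HFD 2 they made up 1.89% and 3.09%, and in HFD 3 35.7% of a total of 1.12 TPM.

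The remaining 3 members were low everywhere. Myh7b had 0.02, 0.62 and 0.98 TPM in the LFD-fed and 0.33, 0.28 and 0.35 TPM in the HFD-fed mice, from 2 to 30 counts. Atrial Myh6 reached 6 counts in LFD 2 and 3 in HFD 2 and had 0 in the other mice. Extraocular Myh13 had at most 5 counts in any mouse. For these genes the diets overlapped, and a difference was not detectable at this depth.

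The 4 adult skeletal chains together had 392, 1420 and 196 TPM in LFD 1, 2 and 3. They had 5.36, 20.95 and 0.33 TPM in HFD 1, 2 and 3. From the lowest to the highest mouse this is a range of 4302-fold, in which the lowest, HFD 3, rests on 18 counts. The mean of log2(TPM + 1) was 8.90 ± 1.45 (SD, n = 3) in the LFD-fed and 2.51 ± 2.03 (SD, n = 3) in the HFD-fed mice, a difference of -6.39. All 9 genes took 0.194%, 0.615% and 0.0799% of the counts in LFD 1, 2 and 3 and 0.0033%, 0.0102% and 0.000342% in HFD 1, 2 and 3.

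The diets were set against each other by the quasi-likelihood test of edgeR over the whole table, and log2 fold changes are HFD over LFD with their standard error (SE). The filter on low counts passed 17668 genes and 6 of the 9 members. Myh3, Myh6 and Myh13 were not tested. Myh1, Myh2, Myh4 and Myh7 had enough counts mainly in the LFD-fed mice, so that passing the filter already favours a low value in HFD-fed mice. The log2 fold change was -6.21 (SE 1.88) for Myh4, -5.95 (SE 1.46) for Myh1 and -4.95 (SE 1.57) for Myh2. Without HFD 2, that of Myh2 was -8.15. It was -8.07 (SE 2.28) for Myh7, where 2 HFD-fed mice had 0 counts. Without HFD 1 every remaining HFD-fed mouse had 0 counts of Myh7, and the fitted -14.37 is then not a measure of size. For Myh8 it was -4.43 (SE 1.68), and without LFD 2 it was -0.47, so the value rests on that mouse. For Myh7b it was -0.38 (SE 0.80).

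The thresholds of the study are an adjusted p under 0.01 together with a log2 fold change beyond 1.5 in size. At these, edgeR called 0 of the 6 tested members, and 0.00% of all genes in either direction. The smallest adjusted p of any gene in edgeR's test was 0.170. At an unadjusted p under 0.05, 5 members were lower in HFD-fed mice, where 6.62% of all tested genes were lower and 3.86% higher. In normalized counts (log2 CPM), 4 members had every HFD-fed mouse below every LFD-fed mouse, which held for 9.23% of tested genes, and 0 members had the reverse, which held for 6.72%. These counts use the contrast by which the members were picked and support nothing about them. DESeq2 with default settings called 3 members lower, Myh1, Myh2 and Myh4, and 1.02% of the 29856 genes that it fitted. With a block for the replicate number, 0 members were called by edgeR, and 3 were lower at an unadjusted p under 0.05, where 8.76% of genes were lower and 8.75% higher.

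**Figure D2:**
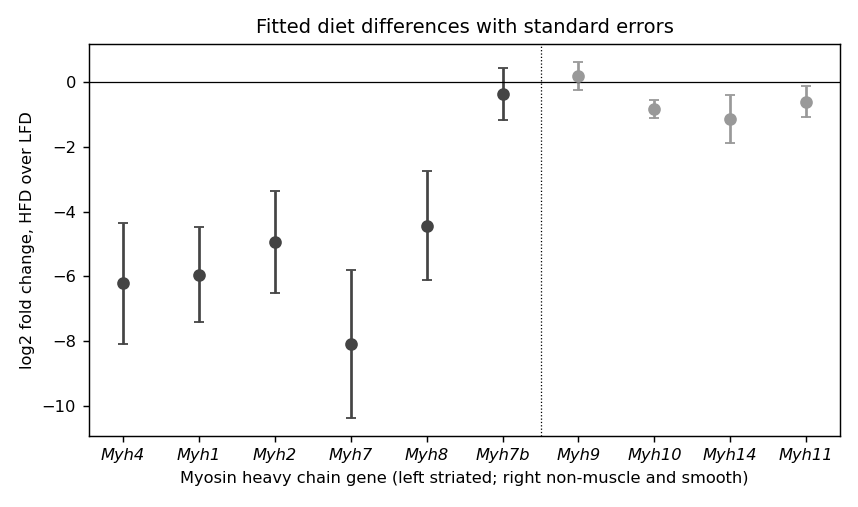
Log2 fold change, HFD over LFD, of each tested heavy chain with its standard error from edgeR (3 mice per diet). Dark points are the 6 tested striated members and grey points the non-muscle and smooth muscle chains. Myh4, Myh1, Myh2, Myh7 and Myh8 lie between -8.07 and -4.43, while Myh7b and the grey points lie between -1.14 and 0.18.

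Heavy chains outside striated muscle had log2 fold changes of -1.14 to 0.18, beside a median of -0.05 for all tested genes. Myh9, the main non-muscle chain of the cell cortex, had 61.4, 122 and 258 TPM in LFD 1, 2 and 3 and 78.0, 142 and 208 TPM in HFD 1, 2 and 3. It had a log2 fold change of 0.18 (SE 0.43, edgeR adjusted p = 0.946), and it was slightly negative without HFD 3 or without LFD 1. Myh10, a non-muscle chain, had 15.9, 17.7 and 32.7 TPM in the LFD-fed and 8.25, 10.3 and 8.09 TPM in the HFD-fed mice. All its HFD-fed mice were below all LFD-fed mice, with a log2 fold change of -0.84 (SE 0.28, edgeR adjusted p = 0.362). For Myh14 the log2 fold change was -1.14 (SE 0.74, adjusted p = 0.682), and for the smooth muscle chain Myh11 it was -0.61 (SE 0.49, adjusted p = 0.757). None of these 4 passed the test in edgeR. In the HFD-fed mice, Myh9 was the most abundant heavy chain in each library, and in LFD 1 and LFD 2 it was Myh4.

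The fibre-type composition is given as each adult chain's share of the summed TPM of Myh7, Myh2, Myh1 and Myh4. In LFD 1 the type IIb chain took 68.1%, IIx 23.8%, IIa 7.81% and type I 0.214%. In LFD 2 these shares were 68.5%, 19.0%, 6.85% and 5.66%. In LFD 3 they were 32.3%, 39.7%, 16.5% and 11.4%. LFD 1 and LFD 2 thus had nearly the same IIb share at levels that differed several-fold, while LFD 3 had a larger share of every other type than they did.

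Counting error was small in the LFD-fed mice. Of 40824 counts of the 4 genes in LFD 1, 68.8% fell on Myh4, with a Wilson 95% interval of 68.3% to 69.2%. In LFD 3 it was 33.1% of 13523 counts (32.3% to 33.9%). These intervals cover counting error only and treat reads as independent molecules, so they say that the libraries differed and nothing about other mice of the diet.

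In HFD 1 the shares were 76.9% IIb, 15.1% IIx, 4.29% IIa and 3.73% type I, from 692 counts. In HFD 2 they were 50.4%, 27.7%, 21.9% and 0%, from 1938 counts. A count of 0 in HFD 2 leaves room for a type I share of up to 0.198% by the Wilson interval, which is below the shares of HFD 1, LFD 2 and LFD 3. HFD 3 had 18 counts in all, and its IIb share was 18.2% by TPM and 33.3% by counts (Wilson 95% interval 16.3% to 56.3%). The IIx share of HFD 3 was 69.7% by TPM and 44.4% by counts, because the effective length of Myh1 was 1924 bases in this mouse and 5370 to 5909 in the others. The mix of HFD 3 was therefore not measurable at this depth.

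**Figure D3:**
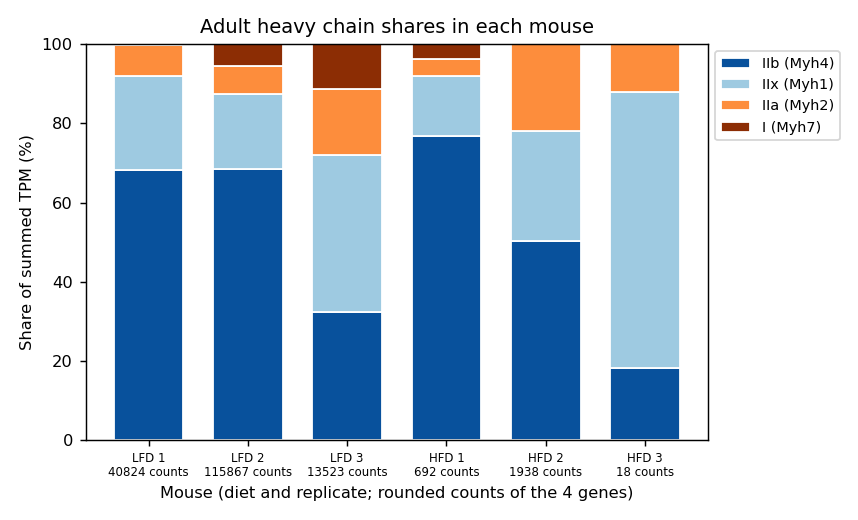
Stacked bars of the share of summed TPM, in percent, of the type IIb (Myh4), IIx (Myh1), IIa (Myh2) and I (Myh7) chains in each mouse, with the number of counts behind each bar. LFD 1 and LFD 2 have about the same IIb part, the IIb part of LFD 3 is smaller, and the bar of HFD 3 rests on 18 counts.

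Between diets the shares overlapped for every fibre type. The IIb share was 56.3% ± 20.8 (SD, n = 3) in LFD-fed and 48.5% ± 29.4 in HFD-fed mice. The IIx share was 27.5% ± 10.9 in LFD-fed and 37.5% ± 28.6 in HFD-fed mice. The IIa share was 10.4% ± 5.33 and 12.8% ± 8.80, and the type I share 5.77% ± 5.61 and 1.24% ± 2.15. Without HFD 3, whose 18 counts could not give a mix, the HFD means were 63.6% for IIb and 21.4% for IIx, and both differences from the LFD-fed mice turned direction. Each of the differences over all 6 mice was smaller than the SD in at least 1 of the diets. The level of the adult chains was apart between diets, and their composition was not.

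The slow share was also read from genes that the rule did not use. Fast and slow fibres use different troponins and light chains, and the pairs Tnni1 and Tnni2 (troponin I), Tnnt1 and Tnnt3 (troponin T), Tnnc1 and Tnnc2 (troponin C) and Myl2 and Mylpf (regulatory light chain) were used, the slow form named before the fast form. These pairs were formed after the values were seen. In LFD 1 the slow share was 0.214% for the heavy chains, 0.0792% for troponin I, 0.175% for troponin T and 0.180% for troponin C. In LFD 2 it was 5.66%, 7.15%, 7.35% and 6.52%, and in LFD 3 it was 11.4%, 10.8%, 12.6% and 11.8%. The 3 LFD-fed mice thus stood in the same order by each measure, with 5.66% to 7.35% in LFD 2 and 10.8% to 12.6% in LFD 3. By counts the Myh7 share of LFD 1 was 0.0735%, since its TPM rests on the short effective length given above. The Myl2 share, 0.324%, 12.0% and 20.6% in LFD 1, 2 and 3, had the same order and was higher in each mouse.

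In the HFD-fed mice the measures did not come together in this way, but the slow isoforms had few counts there. Tnni1 had 3, 0 and 6 counts in HFD 1, 2 and 3, Tnnt1 16, 11 and 33, and Tnnc1 8, 5 and 13. Whether the measures differed beyond counting error was not tested. HFD 1 had a slow share of 3.73% for the heavy chains, 3.40% for troponin I, 13.4% for troponin T and 14.9% for troponin C. HFD 2 had 0%, 0%, 3.64% and 3.19%. HFD 3 had 0% for the heavy chains, 19.6% for troponin I, 78.2% for troponin C and 90.6% for troponin T. The last came from a Tnnt1 level of 2.99 TPM and a Tnnt3 level of 0.31 TPM. The Myl2 share was 1.71%, 5.51% and 0% in HFD 1, 2 and 3. Tnnt1 and Tnnc1 had levels of 1.03 to 2.99 and 0.53 to 1.33 TPM in HFD-fed mice, beside 1.69 and 0.96 TPM in LFD 1.

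**Figure D4:**
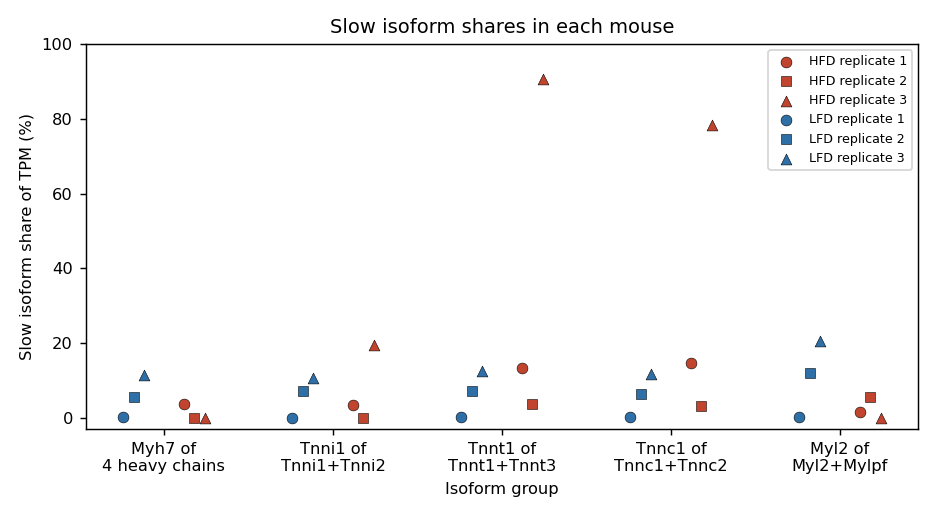
Share of the slow isoform in percent of TPM for the heavy chains (Myh7 of the 4 adult chains), troponins I, T and C and the regulatory light chain, by mouse. The blue points of LFD 1, 2 and 3 rise in this order in each group, from 0.324% or less to between 10.8% and 20.6%, while the red points of HFD 3 range from 0% to 90.6% on few reads.

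The partners of the heavy chains in the sarcomere were read by fixed lists, with the separation of the diets again in log2 CPM. All lists were chosen with earlier results of these data known, so their values describe and are no independent support. Some genes passed the filter on low counts through the LFD-fed mice, which already favours a low value in HFD-fed mice. Of all tested genes, 9.23% had every HFD-fed mouse below every LFD-fed mouse, and 6.62% were lower at an unadjusted p under 0.05 in edgeR. The 10 fast fibre partners were all tested, and in all 10 every HFD-fed mouse lay below every LFD-fed mouse. The median log2 fold change was -6.24, beside -0.05 for all tested genes. The fast regulatory light chain Mylpf had 823, 1784 and 279 TPM in LFD 1, 2 and 3 and 6.89, 23.0 and 3.06 TPM in HFD 1, 2 and 3. Its log2 fold change was -6.46 (SE 1.20, edgeR adjusted p = 0.173). Fast troponin T, Tnnt3, had -6.31 (SE 1.58, adjusted p = 0.236) and fast troponin C, Tnnc2, -6.61 (SE 1.51, adjusted p = 0.198). edgeR called 0 of the 10, and all 10 were lower at an unadjusted p under 0.05, beside 6.62% of all tested genes. The summed level of the list was 1188 to 9301 TPM in LFD-fed and 17.4 to 155 TPM in HFD-fed mice, and none of its genes was at 0 in any mouse.

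Of the 10 slow fibre partners, 9 were tested, with a median log2 fold change of -5.23, and in 5 of them the HFD-fed mice lay below the LFD-fed mice. Myl2 had 2.67, 242 and 72.3 TPM in LFD 1, 2 and 3 and 0.12, 1.34 and 0 TPM in HFD 1, 2 and 3, with a log2 fold change of -7.46 (SE 1.78, edgeR adjusted p = 0.215). The 2 most abundant genes of the list are also used outside muscle. Tropomyosin Tpm3 had a log2 fold change of 0.32 (SE 0.44, adjusted p = 0.882) and the calcium pump Atp2a2 of 0.10 (SE 0.28, adjusted p = 0.954). edgeR called 0 of the 9, and 6 were lower at an unadjusted p under 0.05. Myl2 had 1, 8 and 0 counts in HFD 1, 2 and 3 and passed the filter on low counts through the LFD-fed mice.

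Of the cardiac and atrial list, 3 of 8 genes were tested, and 0 were called by edgeR, with 2 lower at an unadjusted p under 0.05. Myl4, an atrial and embryonic light chain, had 5.71, 47.8 and 5.49 TPM in LFD 1, 2 and 3 and 3.00, 1.04 and 0.72 TPM in HFD 1, 2 and 3. Cardiac actin, Actc1, which developing skeletal muscle also uses, had 31.2 TPM in LFD 2 and at most 1.56 in any other mouse. Cardiac troponin T, Tnnt2, had 12.5 TPM in LFD 2 and at most 1.17 elsewhere. The atrial genes Myl7 and Nppa, singled out after their values were seen, had at most 0.14 and 0.32 TPM in any mouse, and Myh6 had at most 6 counts.

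All 12 genes of the list common to striated muscle were tested, with a median log2 fold change of -5.39, and 11 had the HFD-fed mice below the LFD-fed mice. edgeR called 0 of the 12, and 11 were lower at an unadjusted p under 0.05. Skeletal actin, Acta1, the thin filament partner of myosin, had 872, 2336 and 486 TPM in LFD 1, 2 and 3 and 8.30, 37.9 and 0.68 TPM in HFD 1, 2 and 3. The ratio of the summed adult chains to Acta1 was 0.450, 0.608 and 0.402 in LFD 1, 2 and 3 and 0.646, 0.553 and 0.485 in HFD 1, 2 and 3. Over a 4302-fold range of myosin, this ratio varied by 1.60-fold and overlapped between diets. In HFD 3 it rests on 18 counts of the adult chains and 16 of Acta1. Most of the chain TPM of HFD 3 was Myh1, with the short effective length given above, so the ratio of this mouse is uncertain. The ratio to the muscle creatine kinase Ckm was 0.460, 0.803 and 0.806 in LFD 1, 2 and 3 and 1.497, 0.798 and 5.5 in HFD 1, 2 and 3. This is a 12.0-fold range in which HFD 3 stood apart at 0.06 TPM of Ckm, from 2 counts. Ckm had a log2 fold change of -6.50 (SE 1.74, edgeR adjusted p = 0.265).

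Myoglobin, Mb, which brown adipocytes also make, was the exception in that list. It had 95.03, 326 and 63.9 TPM in LFD 1, 2 and 3 and 50.2, 152 and 6.20 TPM in HFD 1, 2 and 3, with a log2 fold change of -0.98 (SE 1.06, edgeR adjusted p = 0.845). The ratio of the adult chains to Mb was 4.13, 4.35 and 3.06 in LFD-fed and 0.107, 0.138 and 0.0532 in HFD-fed mice. Unlike the ratio to Acta1, it was apart between diets.

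**Figure D5:**
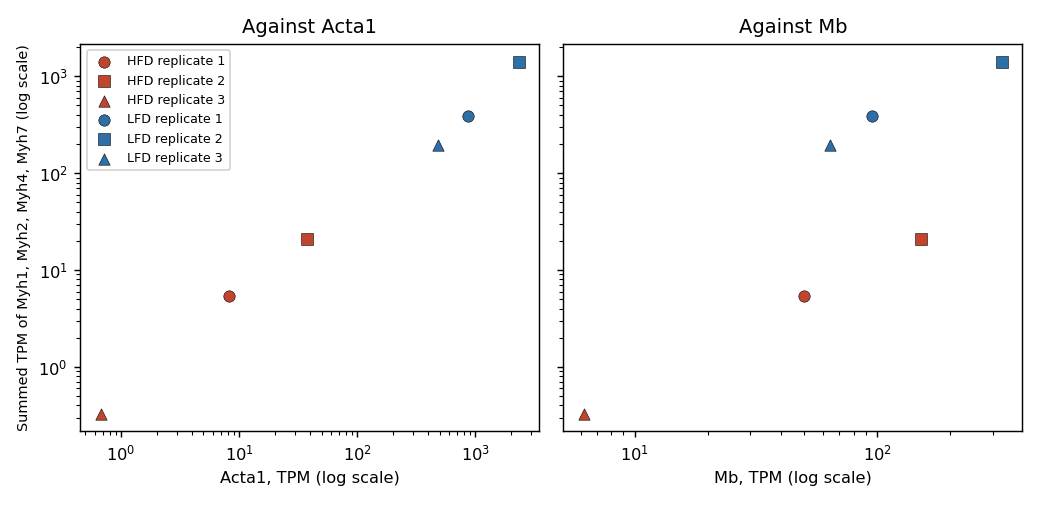
Summed TPM of Myh1, Myh2, Myh4 and Myh7 in each of the 6 mice against skeletal actin Acta1 (left) and myoglobin Mb (right), on log axes. Against Acta1 the points of both diets lie near a single line, with ratios of 0.402 to 0.646, while against Mb the HFD-fed mice lie below the LFD-fed mice. The lowest point, HFD 3, rests on 18 counts of the 4 chains and 16 of Acta1.

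Myosin heavy chains are folded by dedicated chaperones and removed by muscle ubiquitin ligases. All 8 genes of this list were tested, with a median log2 fold change of -3.41. In 5 of the 8, every HFD-fed mouse lay below every LFD-fed mouse in log2 CPM, beside 9.23% of all tested genes. edgeR called 0 of the 8, with 6 lower and 1 higher at an unadjusted p under 0.05. Of these, Trim63 had 1, 7 and 2 counts in HFD 1, 2 and 3 and passed the filter on low counts through the LFD-fed mice. The ligase Trim63 (MuRF1), which targets thick filament proteins, had 9.53, 54.3 and 4.34 TPM in LFD 1, 2 and 3 and 0.03, 0.25 and 0.09 TPM in HFD 1, 2 and 3. Its log2 fold change was -7.45 (SE 1.25, edgeR adjusted p = 0.170). The general chaperone Unc45a had a log2 fold change of -0.32 (SE 0.26, adjusted p = 0.759). Unc45b and Smyd1 of the same list were singled out after their values were seen. They had log2 fold changes of -2.26 (SE 0.64, adjusted p = 0.294) and -4.56 (SE 0.81, adjusted p = 0.173). Hsp90aa1, which folds myosin among many other proteins, had a log2 fold change of 0.88 (SE 0.31, adjusted p = 0.402). Its 3 HFD-fed mice were above its 3 LFD-fed mice in log2 CPM, and the diets overlapped in TPM.

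Of 10 muscle regulatory and developmental genes, 3 were tested, and edgeR called 0, with 2 lower at an unadjusted p under 0.05. Of these, Myf6 had 0, 1 and 0 counts in HFD 1, 2 and 3 and passed the filter on low counts through the LFD-fed mice. Myf6 (MRF4), the MyoD family member of mature fibres, had 3.36, 25.8 and 2.78 TPM in LFD 1, 2 and 3 and 0, 0.05 and 0 TPM in HFD 1, 2 and 3. Mef2c, a transcription factor of muscle and other tissues, had a log2 fold change of -0.95 (SE 0.38, edgeR adjusted p = 0.454). The untested members Myog and Mymk were singled out after their values were seen, because they are used when muscle cells differentiate and fuse. Myog had 147 counts in LFD 2, 11 in LFD 3 and at most 1 in the other mice. Mymk had 130 counts in LFD 2 and at most 1 in any other mouse. They were highest in the mouse that was also highest in Myh3 and Myh8.

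Likeness to Myh4 was measured over the 6 mice as the root mean square difference of log2 CPM after each gene was centred on its own mean. The 5 nearest of 17667 genes were Ckm (0.67), Pvalb (0.76), Tnnt3 (0.77), Xirp2 (0.78) and Atp2a1 (0.81), beside a median of 4.42 over all genes. Pvalb, the calcium buffer of fast fibres, and Atp2a1, their calcium pump, are textbook fast muscle genes. Ckm, the muscle creatine kinase, is in the list common to striated muscle. Myh1 came at rank 9 and Myh2 at rank 18. Myh7 at rank 342 and Myh8 at rank 841 were much less like Myh4. Since the profiles share libraries and the diet difference, this is a description of 6 points.

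Noncoding genes inside the chromosome 11 cluster were read as well. Myhas, annotated antisense at chr11:67211256-67237573 from within Myh1 towards Myh4, had 132, 281 and 36 counts in LFD 1, 2 and 3 and 6, 5 and 0 counts in HFD 1, 2 and 3. It lay below in every HFD-fed mouse, with a log2 fold change of -5.36 (SE 1.16). The setting for strand is not given in the sources used here. Of the 6007 stretches of 75 bases in Myh1, 371 (6.18%) are also in Myhas, and reads from these cannot be told apart. How many of the Myhas reads come from them was not computed. The lincRNA 2310065F04Rik had 67, 107 and 6 counts in the LFD-fed and 2, 7 and 0 in the HFD-fed mice. 9430073C21Rik, antisense to the end of Myh2, had 37 counts in LFD 2 and at most 5 elsewhere.

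Markers of the other cells of the pad also differed between mice, and their part in the result was not tested. In the brown adipocyte, macrophage and smooth muscle lists, 0 genes had every HFD-fed mouse below every LFD-fed mouse in log2 CPM, beside 9.23% of all tested genes. The reverse held for 1 of 12 brown adipocyte, 3 of 8 macrophage and 0 of 5 smooth muscle genes, beside 6.72% of all tested genes. The tissue was labelled brown adipose tissue, and all 12 brown adipocyte genes were detected in every mouse. Ucp1, the uncoupling protein that defines brown adipocytes, had 443, 11.0 and 76.0 TPM in LFD 1, 2 and 3 and 2728, 4021 and 796 TPM in HFD 1, 2 and 3. The mouse with the highest heavy chain level, LFD 2, had the lowest Ucp1. Ucp1 was apart between diets with a log2 fold change of 3.67 (SE 1.56, edgeR adjusted p = 0.480), while the fat cell genes Adipoq (-1.19, SE 0.76, adjusted p = 0.671) and Fabp4 (-0.35, SE 0.76, adjusted p = 0.937) overlapped. Over the 12 genes the median log2 fold change was 1.496, with 8 positive and 4 negative values. The summed level of the 12 genes was 3522 to 12297 TPM in LFD-fed and 5752 to 12234 TPM in HFD-fed mice. In LFD 2 the sum of 10618 TPM held 7354 of Fabp4 and 11.0 of Ucp1. In HFD 2 the sum of 12234 TPM held 5014 of Fabp4 and 4021 of Ucp1. Overlap of the sums therefore does not mean that the brown adipocyte genes were alike between diets. edgeR called 0 of the 12, and 1 was higher at an unadjusted p under 0.05, beside 3.86% of all tested genes.

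The 8 macrophage genes summed to 369 to 3468 TPM in LFD-fed and 1457 to 3256 TPM in HFD-fed mice. None was called by edgeR, and 3 were higher at an unadjusted p under 0.05, beside 3.86% of all tested genes. Cd68, a lysosomal protein of macrophages, had a log2 fold change of 1.72 (SE 0.63, edgeR adjusted p = 0.413), Lyz2 of 0.54 (SE 0.66, adjusted p = 0.862) and Mrc1 of -0.16 (SE 0.41, adjusted p = 0.948). LFD 3, the LFD-fed mouse with the lowest Myh4, had the highest summed macrophage level of the 6 mice. The 5 smooth muscle genes, with 47.1 to 222 TPM in LFD-fed and 59.5 to 169.8 TPM in HFD-fed mice, had 0 called and 0 at an unadjusted p under 0.05. Among them were smooth muscle actin Acta2 (0.31, SE 0.56, adjusted p = 0.920), Tagln (0.50, SE 0.27, adjusted p = 0.583) and Smtn (-0.43, SE 0.46, adjusted p = 0.845).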

How the data were processed

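RNA-Seq of BAT from 3 HFD-fed and 3 LFD-fed mice was used, with diets and replicate numbers taken from the labels. Ribosomal RNA was removed and reads of 75 bases were sequenced from a single end. Adapters were trimmed by the authors (Trimmomatic 0.36), and RSEM 1.3.0 quantified the reads on GRCm38.p4 (Ensembl 84). The authors deposited, for each gene and mouse, an expected count, which is not normalized, and TPM and FPKM, which divide by effective length and are scaled within the sample. The authors' files also give lengths and the SD of the count over divisions of shared reads. The submitters' processing notes name DESeq2 1.10.1.

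Expected counts were rounded and tested in R 4.3.3 with edgeR 4.0.16 (quasi-likelihood test, TMM, filterByExpr, Benjamini-Hochberg over 17668 genes; SE from the fold change and its F), after the script was checked on simulated data. DESeq2 1.42.0 was an alternative. No pair of libraries was a repeat. Nothing says that mice with the same number were matched, but their deviations from the diet mean correlated across genes with r = 0.498, 0.229 and 0.522 (other pairs -0.528 to 0.0532), so the numbers were taken as pairs in an alternative fit (replicate block). Deviations within a diet cancel out, which by itself lowers the other pairs where the same-number pairs are high. The pairing was thus read from the counts that this fit uses and is not known from the labels.

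Members and gene lists were chosen with earlier results of these data known. Named are the 9 members, 4 other heavy chains, the 3 most abundant genes of each list, the 5 genes most like Myh4 and 3 genes within its cluster. A gene that this rule names is not reported here. Mymk was found by its gene ID under an older symbol. Positions and transcripts are from GENCODE M21 and promoters from RefSeq, in which all 9 members matched. Coding sequences were aligned with mafft. The alternatives were DESeq2, RLE size factors, other filters, the block, looser thresholds, counts or FPKM for TPM, all 9 genes summed, a rescaling without mitochondrial genes, a pseudocount of 0.1 in place of 1 and each mouse left out. The authors' own comparisons were not used.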

Additional observations from a re-analysis of the deposited data

How the results depend on the processing

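With 3 mice per diet, and members chosen on the same libraries, the sizes given above are descriptions. DESeq2 with default settings called 305 genes lower and 106 higher, 3 members lower and 35 genes of the 9 lists lower, where edgeR called 0 of each (1851 genes at an unadjusted p under 0.05), and the cause was not tested. The pairing by replicate number (replicate block) left the called members and genes at 0, with 184 genes at an adjusted p under 0.05 and 3094 at an unadjusted p under 0.05, 3 members among them. Its median log2 fold change over the 6 tested members was -6.69 in place of -5.45, and it changed no other call. Leaving out each mouse in turn gave medians of -7.20 to -4.84 for the members, -0.98 to -0.35 for the 4 other heavy chains and differences of -7.36 to -5.34 in summed adult chains on the log2(TPM + 1) scale. It left 0 genes, 0 members and 0 list genes called in either direction. Without LFD 3 there were 222 genes at an adjusted p under 0.05. The direction turned for Myh9 without HFD 3 (-0.03) and without LFD 1 (-0.052), in a range up to 0.62 without LFD 3. It turned for Myh7b, whose counts are low, without LFD 2 (0.48), in a range down to -0.85 without LFD 1. For the mean shares, the left-out ranges were 34.3% to 63.6% (IIb), 21.4% to 48.7% (IIx), 8.21% to 16.99% (IIa) and 0% to 1.87% (type I) in HFD-fed mice. The IIb and IIx means without HFD 3 (63.6% and 21.4%) turned the direction of the diet difference. In LFD-fed mice they were 50.2% to 68.3%, 21.4% to 31.8%, 7.33% to 12.2% and 2.94% to 8.54%. A minimum of 10 counts in every mouse removed most members, so their median was not computed there. The depth limits the shares of HFD 3, and Myh6, Myh7b and Myh13 in every mouse.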
